A study of Mus musculus with 6 samples.

Results

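The DNA replication genes are a set of 41 genes of S phase, listed by symbol for their roles in copying DNA, out of 53953 rows listed for each library. All 41 were found by Ensembl identifier and all had a mean of at least 1 FPKM (fragments assigned to a gene, scaled to its length and to the library's depth), the minimum for testing, which 12913 genes passed. They were measured in organoids, crypt-derived epithelial cultures in Matrigel at passage 3 to 5, that came from wild-type C57BL/6 mice and from the proximal part of the small intestine. For 3 libraries the organoids had been kept for 3 days with arachidonic acid, a polyunsaturated fatty acid of membranes, and for 3 control libraries with its vehicle, 0.1% ethanol. The organoids were then passaged and harvested for RNA on day 3, and the labels do not state whether arachidonic acid was in the medium after the passage. The dose was not given in the sources used here. Whether a group's libraries are separate cultures or mice is not said either, so the p-values reflect library-to-library spread that may be technical.

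Before a cell copies its DNA, the origin recognition complex with Cdc6 and Cdt1 loads the ring of Mcm2 to Mcm7 onto origins. Cdc45 and the GINS complex turn that ring into the moving helicase, primase starts each strand, polymerases delta and epsilon extend it on the sliding clamp PCNA, and nucleotide enzymes keep the precursors supplied. In the intestine these genes mark the cycling crypt compartment, the stem cells and the transit-amplifying cells above them, and many are transcribed at the start of S phase under E2F factors.

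The libraries held 3.56e+07 to 5.08e+07 fragments, with arachidonic acid replicate 1 at 5.08e+07, replicate 2 at 3.56e+07 and replicate 3 at 4.86e+07. A principal component analysis of the tested genes gave a first axis with 85.2% of the variance, which placed the vehicle libraries at -41.6 to -40.4, arachidonic acid replicates 2 and 3 at 58.1 and 54.6 and replicate 1 at 10.2, so replicate 1 stood apart from its group and its values are given beside the others. Epithelial markers were present throughout, with Epcam at 314 to 570 FPKM and the intestinal epithelial gene Vil1 at 377 to 480 FPKM. Their levels were not all stable. Epcam fell from a mean of 548 to 361 FPKM with arachidonic acid. Krt8 rose from 759 to 1632 FPKM and Krt18 from 272 to 770 FPKM, while Cdh1 and Vil1 did not pass. None of the 6 fibroblast markers or 3 endothelial markers exceeded 0.188 FPKM in any library, and of 5 immune markers all but Cd68 were at 0.455 FPKM or less, with the lymphocyte markers Cd3e and Cd79a listed at 0 in some libraries. Cd68, a lysosomal protein gene used as a macrophage marker, rose from between 1.53 and 2.14 FPKM to 3.52, 23.9 and 16.8 FPKM. Summed levels of the marker lists of the epithelial cell types differed between the groups. The 5 enteroendocrine markers summed to between 484 and 566 FPKM with vehicle and between 103 and 137 FPKM with arachidonic acid, the 4 Paneth cell markers to between 1156 and 1891 and between 283 and 494 FPKM, the 4 goblet cell markers to between 765 and 938 and between 232 and 369.5 FPKM, and the 4 crypt stem cell markers to between 454 and 527 and between 227 and 288 FPKM. The 5 enterocyte markers summed to between 679 and 905 FPKM with vehicle and between 1772 and 4419 FPKM with arachidonic acid. That difference lay mainly in Fabp1. The other 4 enterocyte markers summed to between 366 and 493 FPKM with vehicle and to 325, 218 and 155 FPKM with arachidonic acid. These 4 did not move together. The largest change in FPKM among them was in Sis, which fell from a mean of 261 to 45.9 FPKM. Alpi rose from a mean of 26.1 to 92.2 FPKM. The 4 tuft cell markers summed to 7.94 FPKM or less in every library. Of these markers all 5 enteroendocrine, 3 of 4 Paneth, 2 of 3 tested goblet and 2 of 4 stem cell markers fell, and the stem cell marker Ascl2 rose. Of the 5 enterocyte markers 2 rose, Fabp1 and Alpi, and 2 fell, Apoa4 and Sis, while Apoa1 did not pass. Gata4 and Sis, listed as markers of the proximal small intestine, both fell. In RNA from whole organoids, fewer cycling cells and less RNA per cycling cell cannot be told apart.

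With vehicle, the 41 genes covered levels from 2.44 ± 0.310 FPKM for Fen1 to 408 ± 24.7 FPKM for Pcna (mean ± SD over the n = 3 libraries of a group, as in all such values), and the vehicle libraries were close to each other, with a median coefficient of variation of 5.95%. With arachidonic acid 8 of the 41 genes fell, 1 rose and 32 did not pass (limma on log2(FPKM + 1), adjusted p under 0.05 over all tested genes). The genes that fell were Rpa3, Prim1, Pold1, Rfc3, Rfc4, Pold2, Tk1 and Gmnn, and the gene that rose was Rrm2. In that comparison 19.4% of all tested genes were lower and 20.8% were higher, so the share of members that fell, 19.5%, was near the background and the share that rose, 2.44%, was below it. The 9 members that passed in either direction stand against 40.2% of all tested genes. The median log2 fold change (arachidonic acid minus vehicle, on the log2(FPKM + 1) scale throughout) was -0.20 over the 41 genes and -0.03 over all tested genes. The number that fell depended on arachidonic acid replicate 1. Without that library 27 of the 41 were lower and 1, Rrm2, was higher, with a median of -0.35, where 32.4% of all tested genes were lower, 27.5% higher and 59.8% either. That fit sets 3 vehicle libraries against 2 treated ones. It drops the library that stood apart, which narrows the treated spread, so here and below its smaller p-values are descriptive. The 27 included all 8 of the genes that fell with 6 libraries. Without any one of the other five libraries 3 or 4 members were lower and Rrm2 stayed higher, 3 without vehicle replicate 1 and 4 without each of vehicle replicates 2 and 3 and arachidonic acid replicates 2 and 3.

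**Figure D1:**
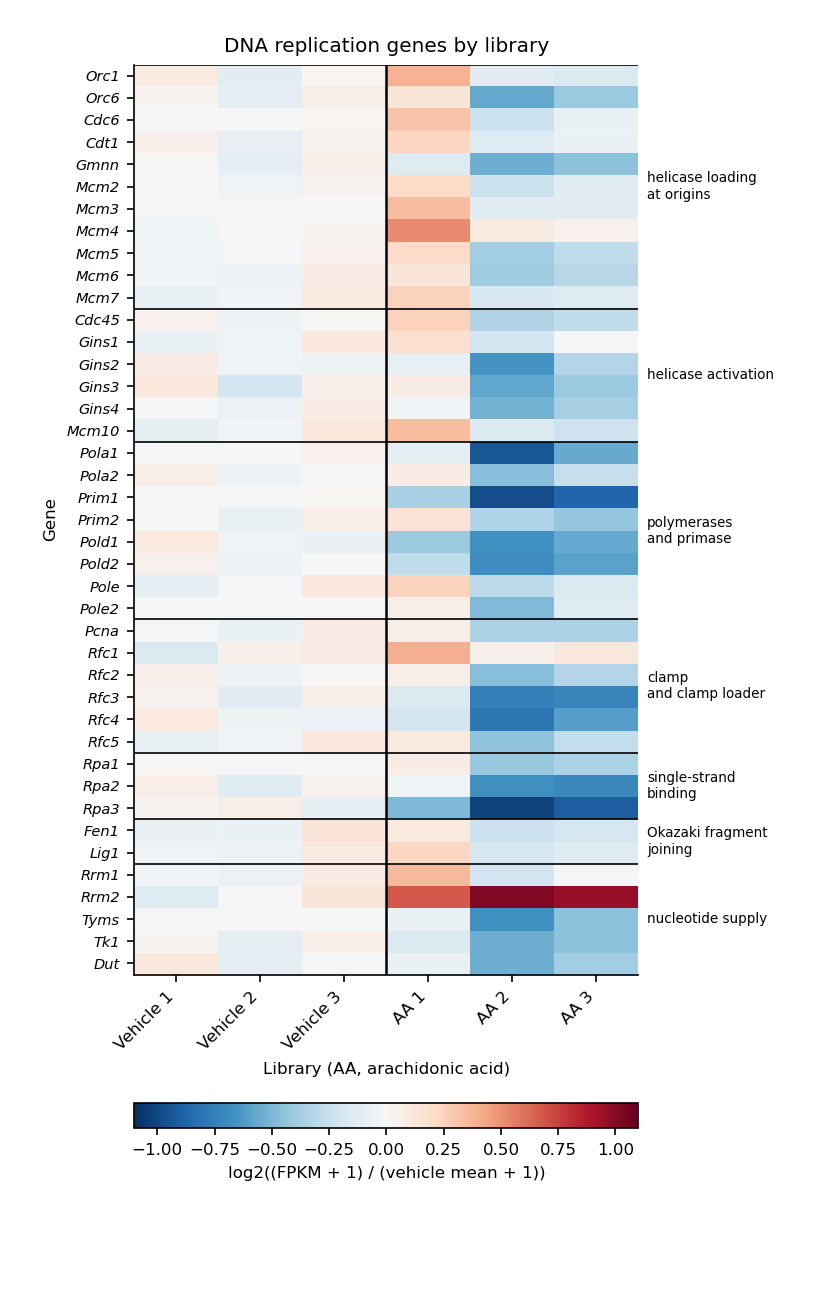
Colour gives log2 of FPKM + 1 over the vehicle mean + 1 for the 41 DNA replication genes (rows, grouped by role) in the 6 libraries (columns; AA, arachidonic acid). The columns of AA replicates 2 and 3 are blue in most rows, with medians of -0.41 and -0.30, the column of AA replicate 1 is pale red in many rows, with a median of 0.11, and Rrm2 is red in all 3.

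The treated libraries did not show one common level for these genes. The median difference from the vehicle mean was 0.11 on the log2 scale in arachidonic acid replicate 1, -0.41 in replicate 2 and -0.30 in replicate 3, where the medians over all tested genes were 0.02, -0.05 and -0.04. Replicates 2 and 3 were both below every vehicle library for 34 of the 41 genes, against 40.6% of all tested genes. Replicate 1 was above every vehicle library for 23 of the 41, against 40.4% of all tested genes, and below every one for 11, against 35.6%. For 16 of the 41 genes both held at once, with replicate 1 above and replicates 2 and 3 below all vehicle libraries, a pattern that 4.20% of all tested genes showed. Replicate 1 was the highest of the 3 treated libraries for 40 of the 41 genes, Rrm2 being the exception, against 49.9% of all tested genes. The spread among treated libraries was wider than among vehicle libraries, with a median coefficient of variation of 20.5% over the members against 5.95% with vehicle, and 11.4% against 6.90% over all tested genes.

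**Figure D2:**
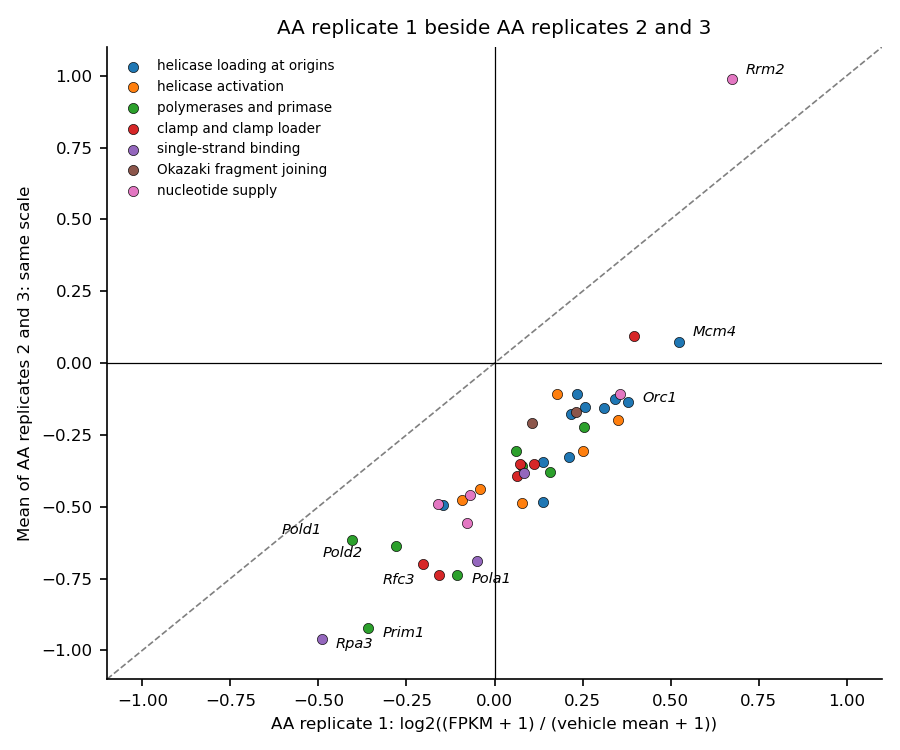
Each point is one of the 41 genes, coloured by role. The x axis is arachidonic acid (AA) replicate 1 and the y axis the mean of AA replicates 2 and 3, both as log2 of FPKM + 1 over the vehicle mean + 1, and the dashed line marks equal values. Points in the lower right quadrant were above the vehicle mean in replicate 1 and below it in replicates 2 and 3, and Rrm2 is the one gene above the line.

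Among the roles, helicase loading at origins had the median log2 fold change nearest to 0, at -0.02. None of its 11 genes rose and 1 fell (9.09%), where 20.8% of all tested genes were higher and 19.4% lower. Gmnn (ENSMUSG00000006715) encodes geminin, which binds Cdt1 and blocks a second round of loading. It was at 84.7, 78.2 and 88.2 FPKM with vehicle and at 75.5, 57.3 and 61.0 FPKM with arachidonic acid, all 3 below every vehicle library. Its log2 fold change was -0.38 (SE 0.11, adjusted p = 0.036), and the call was lost with any one of the other five libraries left out (adjusted p = 0.066 to 0.11) and kept without arachidonic acid replicate 1 (adjusted p = 0.00050).

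Cdt1 (ENSMUSG00000006585), the loading factor that geminin inhibits, did not pass, at 45.4 ± 2.54 and 45.9 ± 6.72 FPKM. Neither did Cdc6, at 9.65 ± 0.137 and 9.77 ± 2.17 FPKM, or Orc1, the largest subunit of the origin recognition complex, at 7.94 ± 0.695 and 8.29 ± 2.02 FPKM. In arachidonic acid replicate 1 all 3 of these genes were above every vehicle library, at 53.6, 12.2 and 10.6 FPKM. Orc6, another subunit of that complex, was at 31.3, 28.5 and 32.0 FPKM with vehicle and 33.7, 20.4 and 22.8 FPKM with arachidonic acid (adjusted p = 0.24). Without replicate 1 it passed as lower (log2 fold change -0.48, adjusted p = 0.0011).

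The 6 subunits of the Mcm2 to Mcm7 ring all had log2 fold changes between -0.18 and 0.22, and none passed. Of all tested genes 19.4% were lower and 20.8% higher. Mcm2 was at 107, 104 and 109 FPKM with vehicle and at 124, 90.3 and 98.5 FPKM with arachidonic acid. Mcm7, the most abundant of the 6, was at 138, 142 and 156 FPKM with vehicle and 174, 129 and 132 FPKM with arachidonic acid. For both, replicate 1 was above and replicates 2 and 3 were below every vehicle library, and the same held for Mcm3, Mcm5 and Mcm6. Among all tested genes 4.20% showed this pattern. Mcm4 differed from the other 5 subunits, at 22.7, 23.8 and 23.9 FPKM with vehicle and 34.2, 25.2 and 24.3 FPKM with arachidonic acid, with no overlap between the groups and no call (log2 fold change 0.22, SE 0.13, adjusted p = 0.21). Groups did not overlap in the higher direction for 2 of the 41 members, Mcm4 and Rrm2, and for 27.6% of all tested genes. Without replicate 1, Mcm2, Mcm5 and Mcm6 passed as lower (log2 fold changes -0.18, -0.33 and -0.35, adjusted p = 0.035, 0.0020 and 0.0024) and Mcm3, Mcm4 and Mcm7 did not. In that fit 32.4% of all tested genes were lower.

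**Figure D3:**
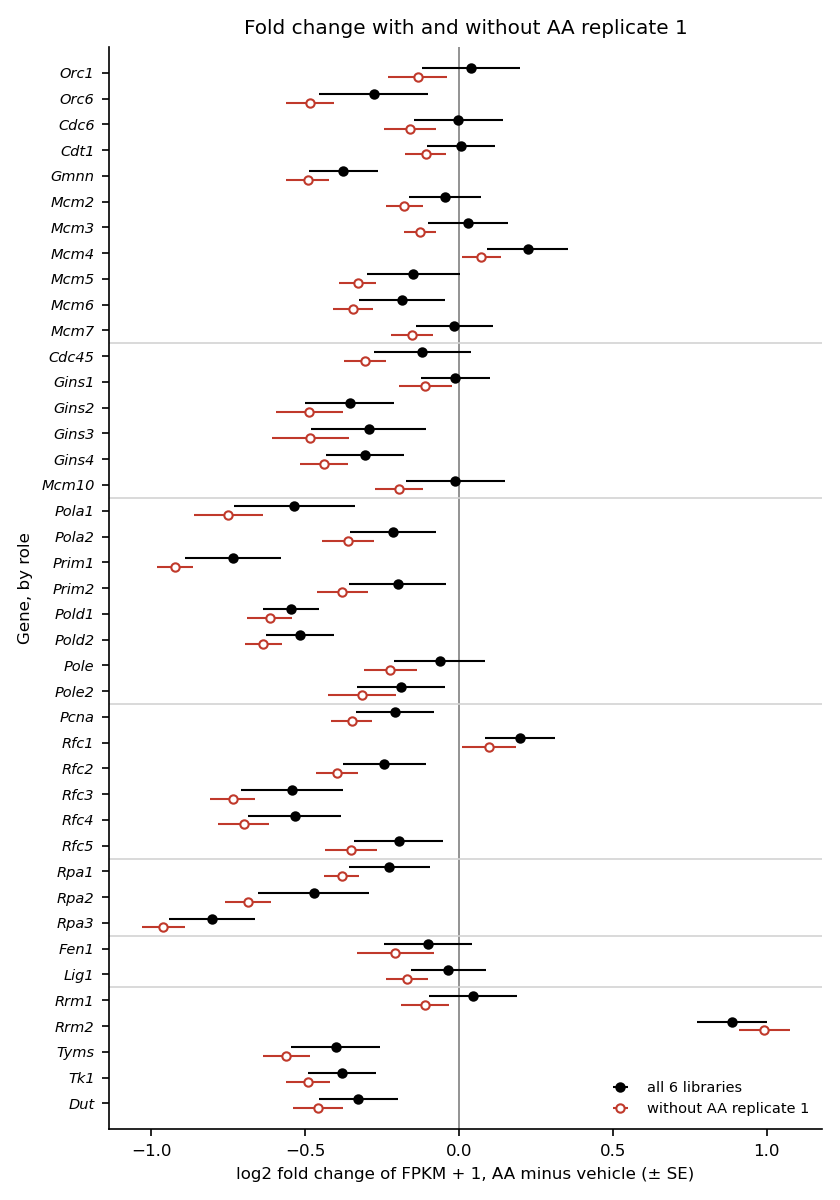
Log2 fold change of FPKM + 1, arachidonic acid (AA) minus vehicle, with its standard error for each of the 41 genes by role. Black points use all 6 libraries and open red points leave out AA replicate 1. Every open point except that of Rrm2 lies to the left of its black point, and Rrm2 stands alone on the right at 0.89 and 0.99.

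Promoter sequences are shown because several of the 41 genes, helicase loading genes among them, hold letters known as E2F binding sequences. RefSeq promoters (build GRCm38.p6, 250 bases before to 50 after a transcript start) were found for 33 of the 41 genes. An exact TTTCCCGC, TTTGGCGC or TTTCGCGC on either strand stood in a promoter of 13 of these 33 genes (39.4%), and in a promoter of 573 of all 27025 genes in the table (2.12%). For single promoters the shares were 34.2% of 38 and 1.84% of 32851. Matches of these letters on opposite strands can overlap and are then counted as 2. Among the loading genes with a promoter, 7 of 9 held the letters. CCAAT on either strand stood in a promoter of 63.6% of the 33 genes and 41.1% of all genes. The bases before the start of 4 genes with the letters follow, the loading genes Mcm6 and Orc1, the helicase activation gene Gins3 and the clamp loader gene Rfc3, 120 bases each, written 5′ to 3′ along the gene with the E2F letters in capitals.
Mcm6 (chr1:128359706-128359825, minus strand): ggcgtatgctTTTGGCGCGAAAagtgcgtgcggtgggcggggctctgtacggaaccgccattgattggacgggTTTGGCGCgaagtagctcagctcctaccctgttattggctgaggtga
Orc1 (chr4:108579334-108579453, plus strand): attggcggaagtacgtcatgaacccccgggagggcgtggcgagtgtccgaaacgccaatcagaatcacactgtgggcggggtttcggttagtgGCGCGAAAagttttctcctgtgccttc
Gins3 (chr8:95633439-95633558, plus strand): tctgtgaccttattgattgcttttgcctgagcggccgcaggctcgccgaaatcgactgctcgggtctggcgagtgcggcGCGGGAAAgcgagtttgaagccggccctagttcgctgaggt
Rfc3 (chr5:151651209-151651328, minus strand): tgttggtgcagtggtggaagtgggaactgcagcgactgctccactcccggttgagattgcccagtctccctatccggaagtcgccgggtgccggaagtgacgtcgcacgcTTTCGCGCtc
In Mcm6 the letters began at 110, 106 and 47 bases before the start, the pair farther from the start overlapping on opposite strands, and in Orc1 and Gins3 at 27 and 41 bases before it on the opposite strand. In Rfc3 they began 10 bases before the start and again at the start itself. The 13 genes with the letters and the 20 without had median log2 fold changes of -0.15 and -0.22, with 2 and 5 genes lower and 0 and 1 higher. Of all tested genes 19.4% were lower and 20.8% higher, and the genes with and without the letters were not tested against each other. Of the 4 genes printed, Rfc3 fell and Mcm6, Orc1 and Gins3 did not pass. A match describes these letters in this window and is not a measured binding site. Only exact letters were searched, so a gene without them, here and below, may hold similar sequences and is not shown to lack an E2F site.

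Helicase activation genes encode the partners that turn the loaded ring into the moving helicase. None of the 6 passed with all libraries, where 19.4% of all tested genes were lower and 20.8% higher. Their log2 fold changes ran from -0.35 to -0.01. Cdc45 (ENSMUSG00000000028), the helicase cofactor, was at 21.4, 19.8 and 20.9 FPKM with vehicle and 24.9, 16.2 and 16.9 FPKM with arachidonic acid. Replicate 1 was thus above, and the other two below, all vehicle libraries. The 4 GINS subunits differed in level, with vehicle means of 26.4 ± 1.94 FPKM for Gins1, 22.6 ± 1.26 for Gins4, 18.1 ± 1.07 for Gins2 and 6.66 ± 0.910 for Gins3. Exons of Gins2 overlap those of Gse1 over 67.3% of their length in the GENCODE M21 annotation, so its value is uncertain. Without replicate 1, Cdc45, Gins2, Gins3 and Gins4 passed as lower (log2 fold changes -0.31, -0.49, -0.48 and -0.44, adjusted p = 0.0057, 0.0057, 0.011 and 0.0020), while Gins1 and Mcm10, a factor that helps activate the helicase, did not (adjusted p = 0.31 and 0.061). In that fit 32.4% of all tested genes were lower.

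Polymerase and primase genes included 3 of the 8 genes that fell. Those 3 of 8 polymerase and primase genes, 37.5%, stand against 19.4% of all tested genes. Their 8 members had a median log2 fold change of -0.37, and all 8 values were below 0. Prim1 (ENSMUSG00000025395), the catalytic subunit of primase, which makes the RNA primers, was at 51.1, 50.9 and 52.2 FPKM with vehicle and at 39.9, 25.7 and 27.6 FPKM with arachidonic acid. All treated libraries were below every vehicle library, with replicate 1 the nearest to them (log2 fold change -0.73, SE 0.16, adjusted p = 0.012). Pold1 (ENSMUSG00000038644), the catalytic subunit of polymerase delta, was at 79.2, 71.6 and 69.8 FPKM with vehicle and 55.3, 45.6 and 49.7 FPKM with arachidonic acid. The 3 treated libraries lay closer together here than for Prim1 (log2 fold change -0.54, SE 0.09, adjusted p = 0.0054). Pold2 (ENSMUSG00000020471), the second subunit of polymerase delta, was at 201, 188 and 196 FPKM with vehicle and 161, 121 and 129 FPKM with arachidonic acid. Its fall (log2 fold change -0.52, SE 0.11, adjusted p = 0.012) missed the threshold without vehicle replicate 1 (adjusted p = 0.0506), and the calls of Prim1 and Pold1 held with each library left out in turn.

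The polymerase alpha and epsilon genes among the 41 did not pass. Pola1, the catalytic subunit of polymerase alpha, was at 21.1, 21.1 and 22.2 FPKM with vehicle and 19.9, 10.7 and 14.3 FPKM with arachidonic acid, without overlap (log2 fold change -0.53, SE 0.20, adjusted p = 0.068). Pole, the catalytic subunit of polymerase epsilon, the leading-strand enzyme, was at 19.5 ± 1.64 and 18.9 ± 4.06 FPKM (adjusted p = 0.76), and Pole2 was at 9.10 ± 0.0876 and 7.96 ± 1.68 FPKM (adjusted p = 0.32). Prim2, the large primase subunit, was at 12.7, 11.8 and 13.3 FPKM with vehicle and 14.2, 9.76 and 9.13 FPKM with arachidonic acid. Replicate 1 was above every vehicle library for Prim2, where for Prim1 it was below them. Without replicate 1, 7 of the 8 polymerase and primase genes passed as lower and Pole did not (adjusted p = 0.058), where 32.4% of all tested genes were lower. The sequence before the start of Prim1 follows for comparison with the genes above, and it holds none of the E2F letters searched.
Prim1 (chr10:128015095-128015214, plus strand): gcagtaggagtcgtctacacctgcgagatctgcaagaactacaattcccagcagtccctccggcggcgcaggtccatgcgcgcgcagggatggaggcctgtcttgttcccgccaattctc

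Of the 6 genes of the clamp and its loader, 5 had log2 fold changes below 0 and Rfc1 did not. Among all tested genes 52.9% were below 0. Pcna (ENSMUSG00000027342), the sliding clamp, was at 401, 387 and 435 FPKM with vehicle and at 429, 320.1 and 319.6 FPKM with arachidonic acid. Replicate 1 lay within the vehicle range, replicates 2 and 3 lay below it, and the gene did not pass (log2 fold change -0.21, SE 0.13, adjusted p = 0.22), although it passed as lower without replicate 1 (log2 fold change -0.35, adjusted p = 0.0027). Of the 5 loader subunits 2 fell, where 19.4% of all tested genes were lower. Rfc3 (ENSMUSG00000033970) was at 42.6, 38.1 and 43.2 FPKM with vehicle and 36.9, 24.1 and 24.6 FPKM with arachidonic acid (adjusted p = 0.038, log2 fold change -0.54, SE 0.16). Rfc4 (ENSMUSG00000022881) was at 58.4, 52.1 and 51.8 FPKM with vehicle and 46.8, 30.7 and 35.2 FPKM with arachidonic acid (adjusted p = 0.030, log2 fold change -0.53, SE 0.15). Replicate 1 was the treated library nearest to the vehicle libraries for both. Their calls were lost with any one of the other five libraries left out (adjusted p = 0.074 to 0.12 and 0.074 to 0.11) and held without replicate 1 (adjusted p = 7.3e-05 and 0.00021). Rfc1, the large subunit, was at 21.2, 24.8 and 25.4 FPKM with vehicle and 31.6, 24.8 and 26.1 FPKM with arachidonic acid, with a log2 fold change of 0.20 (adjusted p = 0.20), and did not pass without replicate 1 either (adjusted p = 0.37). Rfc2 and Rfc5 did not pass (adjusted p = 0.19 and 0.31) and were lower without replicate 1 (adjusted p = 0.0016 and 0.0079).

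Among the subunits of replication protein A, which coats single-stranded DNA at the fork, Rpa3 fell. Rpa3 (ENSMUSG00000012483), the smallest subunit, was at 78.7, 80.7 and 72.0 FPKM with vehicle and at 54.6, 37.5 and 40.8 FPKM with arachidonic acid. No treated library reached the vehicle range, and its log2 fold change of -0.80 (SE 0.14, adjusted p = 0.0061) was the most negative of the 41. The call held with each library left out in turn (adjusted p = 0.033 at most). Rpa2, the middle subunit, was at 69.5, 60.1 and 68.4 FPKM with vehicle and 63.8, 41.1 and 40.1 FPKM with arachidonic acid (adjusted p = 0.075). Rpa1, the large subunit, was at 44.9 ± 0.394 and 38.7 ± 7.76 FPKM (adjusted p = 0.20). Both were within or above the vehicle range in replicate 1 and passed as lower without it (log2 fold changes -0.69 and -0.38, adjusted p = 0.00013 and 0.00068). The sequence before the start of Rpa3 holds none of the E2F letters searched and is shown because this gene had the lowest fold change.
Rpa3 (chr6:8259142-8259261, minus strand): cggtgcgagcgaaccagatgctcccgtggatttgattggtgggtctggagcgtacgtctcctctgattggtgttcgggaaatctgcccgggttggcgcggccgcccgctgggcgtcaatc

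The genes that finish Okazaki fragments did not pass with or without replicate 1. Lig1, the ligase that seals them, was at 47.8, 46.9 and 52.5 FPKM with vehicle and 57.7, 42.7 and 44.3 FPKM with arachidonic acid (adjusted p = 0.84, and 0.061 without replicate 1). Fen1, the flap nuclease, was the lowest of the 41 genes, at 2.26, 2.27 and 2.80 FPKM with vehicle and 2.71, 1.93 and 2.02 FPKM with arachidonic acid (adjusted p = 0.60, and 0.19 without replicate 1). Exons of other genes, Tmem258 among them, overlap 84.2% of the exon length of Fen1 in GENCODE M21, and how the counting treated overlapping genes was not given in the sources used here, which leaves its level uncertain.

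Nucleotide supply held the rise of the set. Rrm2 (ENSMUSG00000020649), the small subunit of ribonucleotide reductase that accompanies S phase, was at 73.8, 81.4 and 89.4 FPKM with vehicle and at 131, 166 and 159 FPKM with arachidonic acid. All 3 treated libraries were above every vehicle library, and the rise in replicate 1 was 0.61 of the mean rise of replicates 2 and 3 in FPKM. Its log2 fold change was 0.89 (SE 0.11, adjusted p = 0.0025), and the call held under all 14 alternatives (log2 fold change 0.82 to 0.99, adjusted p = 3.0e-05 to 0.017). Rrm1 (ENSMUSG00000030978), the large subunit that holds the catalytic site, missed the threshold, with 105, 103 and 115 FPKM in the vehicle libraries and 138, 92.8 and 107 FPKM with arachidonic acid (adjusted p = 0.82, log2 fold change 0.05, SE 0.14). Rrm2b, the p53-inducible small subunit, named by its p-value from the list of other replication genes, rose at a lower level. It was at 3.74, 4.44 and 3.40 FPKM with vehicle and 6.88, 8.51 and 9.33 FPKM with arachidonic acid (adjusted p = 0.0039, log2 fold change 0.92, SE 0.14). The sequence before the start of Rrm2, the member that rose, holds none of the E2F letters searched.
Rrm2 (chr12:24708134-24708253, plus strand): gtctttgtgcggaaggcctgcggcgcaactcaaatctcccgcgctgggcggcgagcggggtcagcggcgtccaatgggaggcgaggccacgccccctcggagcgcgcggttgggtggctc

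The enzymes of thymidine nucleotides were lower or did not pass. Tk1 (ENSMUSG00000025574), thymidine kinase, was at 90.8, 82.4 and 93.6 FPKM with vehicle and 79.4, 61.0 and 64.9 FPKM with arachidonic acid, with no overlap. Its log2 fold change was -0.38 (SE 0.11, adjusted p = 0.032), a call lost with any one of the other five libraries left out (adjusted p = 0.057 to 0.10) and kept without replicate 1 (adjusted p = 0.00059). Tyms, thymidylate synthase, was at 45.1, 45.9 and 45.4 FPKM with vehicle and 43.0, 28.2 and 33.0 FPKM with arachidonic acid, below every vehicle library in each treated one (log2 fold change -0.40, SE 0.14, adjusted p = 0.065). Dut, which breaks down dUTP, was at 80.6 ± 6.42 and 64.5 ± 11.1 FPKM (adjusted p = 0.081). Both passed as lower without replicate 1 (adjusted p = 0.00042 and 0.0018). All treated libraries were below all vehicle libraries for 11 of the 41 members, against 27.5% of all tested genes.

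**Figure D4:**
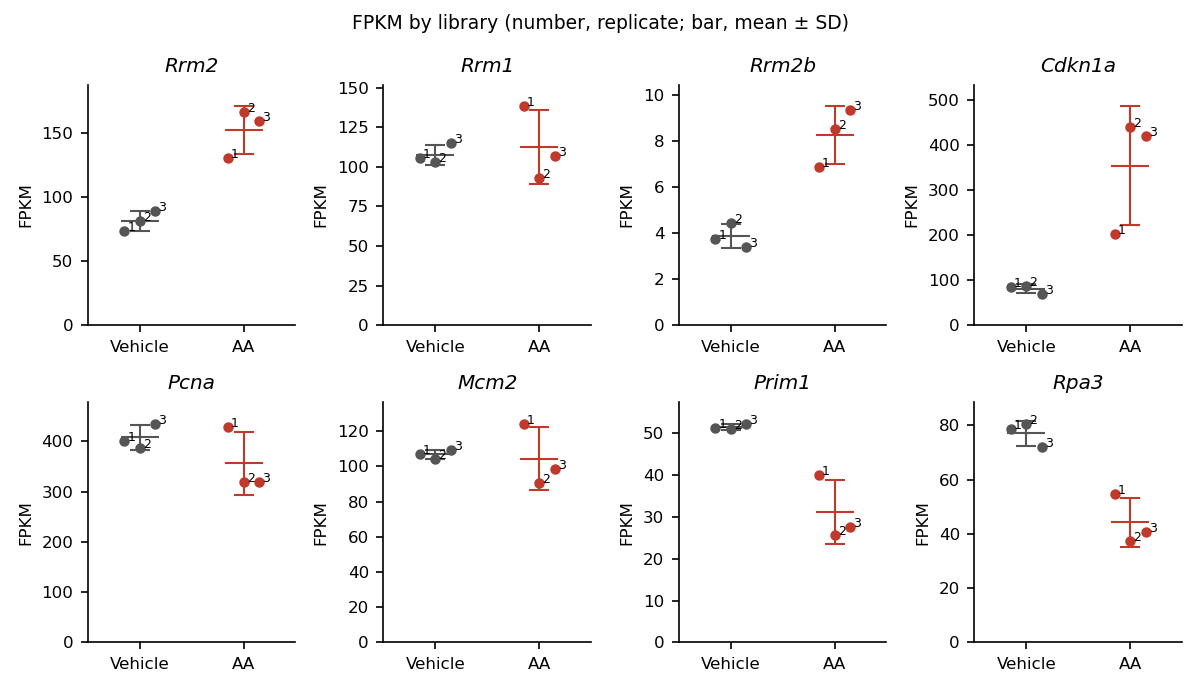
FPKM of 8 genes by library, with vehicle in grey and arachidonic acid (AA) in red. Points are libraries with their replicate number, and bars are the mean ± SD of 3 libraries. Rrm2, Rrm2b and Cdkn1a are higher in all 3 AA libraries, Prim1 and Rpa3 are lower in all 3, and for Pcna and Mcm2 AA replicate 1 lies above AA replicates 2 and 3.

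Ratios between 2 genes of the same library do not depend on how libraries are scaled, and 8 such ratios, chosen after the values were seen, were computed to set a member that moved beside a partner. In each the groups did not overlap, also in replicate 1, which the choice of pairs favoured. How often ratios of other gene pairs separate the groups was not computed. Gmnn over Cdt1 was 1.79, 1.84 and 1.89 with vehicle and 1.41, 1.40 and 1.42 with arachidonic acid, so replicate 1 lay between replicates 2 and 3 although its FPKM of both genes were the highest of the treated libraries. Rpa3 over Rpa1 was 1.74, 1.81 and 1.61 with vehicle and 1.15, 1.12 and 1.17 with arachidonic acid. Prim1 over Prim2 was 4.09 ± 0.198 with vehicle and 2.82 ± 0.197 with arachidonic acid, with replicate 1 again between the other two.

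Rrm2 over Rrm1 was 0.757 ± 0.0487 with vehicle and 0.946, 1.79 and 1.49 with arachidonic acid, so here replicate 1 was the nearest to the vehicle libraries. Rfc3 and Rfc4 over Rfc1 were 1.75 ± 0.240 and 2.30 ± 0.396 with vehicle and 1.03 ± 0.122 and 1.35 ± 0.123 with arachidonic acid. Pola1 over Pola2 was 0.751 ± 0.0450 and 0.592 ± 0.0660, and Pold1 over Pole was 3.80 ± 0.557 and 2.70 ± 0.299. Each of the 8 gave p = 0.10 in a two-sided exact permutation test, the smallest that 3 libraries against 3 allow, and 0.10 after Benjamini-Hochberg adjustment over the 8, so none can pass the threshold.

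**Figure D5:**
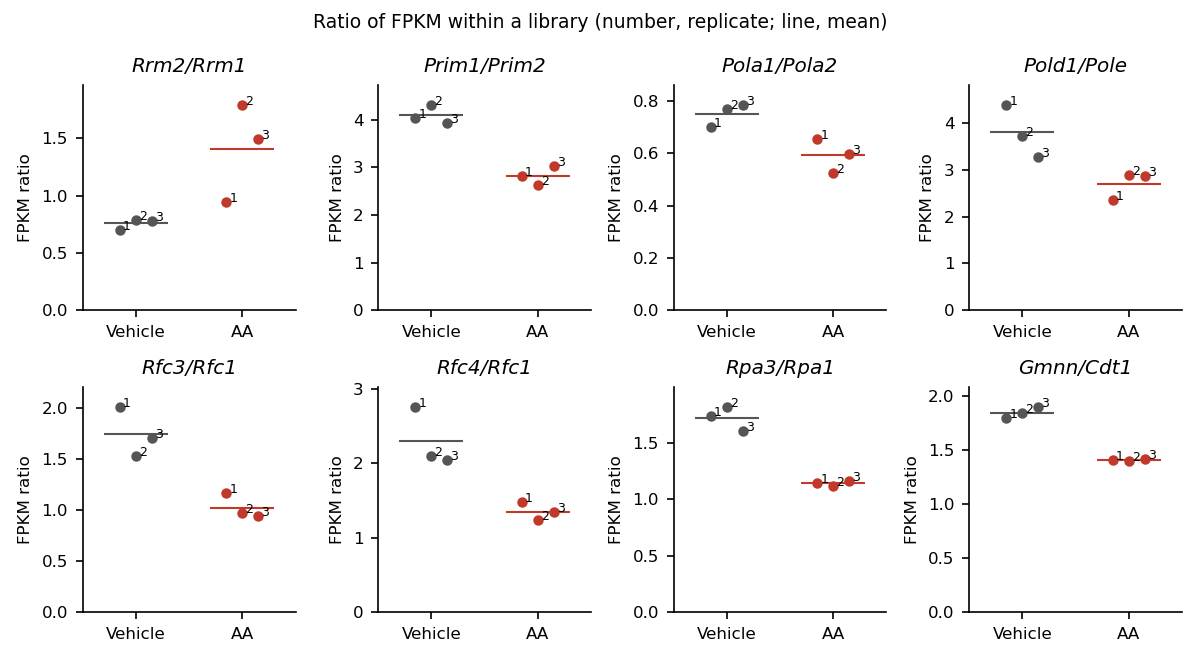
Ratio of the FPKM of 2 genes within a library for 8 pairs chosen after the values were seen, with vehicle in grey and arachidonic acid (AA) in red. Numbers mark replicates and lines the group mean of 3 libraries. The groups are apart in each panel, and for Gmnn/Cdt1, Rpa3/Rpa1 and Prim1/Prim2 AA replicate 1 lies between AA replicates 2 and 3.

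Most other genes of DNA replication did not pass. Of 43 tested genes of origins, forks, chromatin assembly and nucleotide supply outside the 41, 2 rose (4.65%), 4 fell (9.30%) and 37 did not pass. Among all tested genes 20.8% were higher and 19.4% lower. The list had a median log2 fold change of -0.16 and was not tested against the 41 genes. Beside Rrm2b, Orc4, a subunit of the origin recognition complex, rose from 32.9 ± 1.77 to 40.7 ± 2.61 FPKM (adjusted p = 0.021). Pole4, a small subunit of polymerase epsilon, fell from 79.5 ± 1.17 FPKM to 64.55, 58.1 and 57.3 FPKM (adjusted p = 0.0053), and Dtymk, the kinase that follows thymidine kinase, fell from 153 ± 14.9 to 111 ± 14.6 FPKM (adjusted p = 0.020). The calls of Orc4 and Dtymk were each lost without 4 of the other five libraries (adjusted p = 0.065 to 0.085 and 0.0517 to 0.072), Orc4 keeping it without vehicle replicate 2 and Dtymk without vehicle replicate 3. Chtf8, of a loader complex for sister chromatid cohesion, and Asf1a, a histone chaperone, were the other two lower genes and are named after their values were seen. They fell from 80.8 ± 3.59 to 60.5 ± 10.9 FPKM (adjusted p = 0.034) and from 19.0 ± 0.473 to 14.6 ± 1.86 FPKM (adjusted p = 0.026), calls lost with any one of the other five libraries left out (adjusted p = 0.073 to 0.11 and 0.067 to 0.093). Without replicate 1, 27 of 42 tested were lower and 3 higher, Orc3 joining Orc4 and Rrm2b (adjusted p = 0.044). The shares, 64.3% and 7.14%, stand against 32.4% and 27.5% of all tested genes.

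Genes that control entry into S phase included both directions, with 3 higher (11.1%) and 5 lower (18.5%) of 27 tested. Over all tested genes 20.8% were higher and 19.4% lower. Cdkn1a (p21, the inhibitor of cyclin-dependent kinases that p53 induces) was at 85.8, 87.3 and 69.9 FPKM with vehicle and at 202, 440.2 and 419 FPKM with arachidonic acid (adjusted p = 0.0034, log2 fold change 2.04, SE 0.29). Replicate 1 was above the vehicle libraries and below the other two treated ones. Rb1, which restrains E2F, rose from 25.3 ± 2.49 to 36.3 ± 2.87 FPKM (adjusted p = 0.0082), and Mybl2, a transcription factor of cycling cells, rose from 39.3 ± 1.63 to 63.2 ± 7.09 FPKM (adjusted p = 0.0029). Cdkn1b (p27), a further kinase inhibitor, fell from 47.7 ± 2.35 to 31.2 ± 2.92 FPKM (adjusted p = 0.0032). Cdk2, the kinase of S phase, fell from 32.7 ± 1.40 to 26.8 ± 2.30 FPKM (adjusted p = 0.033), a call lost with any one of the other five libraries left out (adjusted p = 0.067 to 0.12). The other lower genes, named after their values were seen, were E2f2, Tfdp2 and Cdkn1c. E2f2, a further E2F activator, was at 28.9, 30.9 and 31.4 FPKM with vehicle and 24.1, 9.43 and 10.04 FPKM with arachidonic acid (adjusted p = 0.030), with replicate 1 far nearer to the vehicle libraries. Tfdp2, a partner of E2F proteins, fell from 26.6 ± 2.14 to 18.7 ± 4.19 FPKM (adjusted p = 0.037), and Cdkn1c (p57), a kinase inhibitor, from 4.07 ± 0.544 to 2.42 ± 0.361 FPKM (adjusted p = 0.017). The calls of E2f2 and Tfdp2 were lost with any one of the other five libraries left out (adjusted p = 0.085 to 0.095 and 0.075 to 0.12) and that of Cdkn1c without vehicle replicates 1 and 2 (adjusted p = 0.068 and 0.058). E2f1, an activator of S-phase genes, did not pass, at 14.6 ± 1.26 and 13.5 ± 1.02 FPKM (adjusted p = 0.39), nor did the repressors E2f7 (adjusted p = 0.82) and E2f8 (adjusted p = 0.064) or the cyclins Ccne1 (adjusted p = 0.35) and Ccne2 (adjusted p = 0.063). E2f8 and Ccne2 passed as lower without replicate 1 (adjusted p = 3.7e-05 and 0.0012), when 14 of the 27 were lower (51.9%, against 32.4% of all tested genes).

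Of 16 tested genes of the replication checkpoint and fork repair, 2 passed as higher and 2 as lower (12.5% each), against 20.8% and 19.4% of all tested genes. Wee1, the kinase that holds back Cdk1, fell from 23.8 ± 0.844 to 13.9 ± 2.95 FPKM (adjusted p = 0.0072), and Chek2, a checkpoint kinase, fell from 54.0 ± 1.44 to 45.1 ± 2.11 FPKM (adjusted p = 0.019). Atr, the kinase that senses stalled forks, rose from 12.1 ± 1.36 to 15.4 ± 0.415 FPKM (adjusted p = 0.031). The other gene that passed as higher, Rad9a of the checkpoint clamp, had a vehicle mean under 1 FPKM and reached the minimum for testing only through its values with arachidonic acid, so its call is not read. The 12.5% of higher genes counts it, so that share is not compared with the background. It was at 0.719, 1.35 and 0.609 FPKM with vehicle and 3.04, 1.74 and 6.38 FPKM with arachidonic acid. Chek2 missed the threshold without vehicle replicates 2 and 3 and arachidonic acid replicate 2 (adjusted p = 0.073, 0.068 and 0.068). Atr missed it without vehicle replicates 1 and 2 and arachidonic acid replicates 2 and 3 (adjusted p = 0.070 to 0.11). Chek1, which acts below Atr, did not pass, at 16.0 ± 0.250 and 12.5 ± 2.78 FPKM (adjusted p = 0.091), and was lower without replicate 1 (adjusted p = 0.00042). In that fit 6 of the 16 were lower (37.5%) and 2 higher (12.5%), against 32.4% and 27.5% of all tested genes. Rad9a was again counted among the higher, so only the lower share can be compared.

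Mitosis genes had a median log2 fold change of -0.15, with 1 higher and 2 lower of 25. These shares, 4% and 8%, stand against 20.8% and 19.4% of all tested genes. Kif23, a kinesin of cytokinesis, rose from 57.9 ± 2.77 to 79.1 ± 4.17 FPKM (adjusted p = 0.0042), Nusap1, a spindle protein, fell from 40.6 ± 2.44 to 27.6 ± 3.96 FPKM (adjusted p = 0.0093) and Ube2c, a ubiquitin-conjugating enzyme of mitotic exit, fell from 130.1 ± 9.59 to 98.7 ± 14.3 FPKM (adjusted p = 0.030). The call of Ube2c was lost with any one of the other five libraries left out (adjusted p = 0.063 to 0.10). The proliferation marker Mki67 was at 67.5, 74.0 and 79.8 FPKM with vehicle and 86.6, 54.9 and 59.0 FPKM with arachidonic acid (adjusted p = 0.46). As for the Mcm genes other than Mcm4, replicate 1 was above and replicates 2 and 3 were below every vehicle library. Top2a was at 260.5 ± 21.3 and 221 ± 38.6 FPKM (adjusted p = 0.16) and Foxm1 at 42.4 ± 2.81 and 30.4 ± 7.76 FPKM (adjusted p = 0.0517). Without replicate 1, 16 of the 25 were lower (64%) and 1 higher (4%), where 32.4% of all tested genes were lower and 27.5% higher. Mki67, Top2a and Foxm1 were among the lower (adjusted p = 0.0049, 0.0030 and 0.00010). For the crypt stem cell markers Lgr5 and Olfm4, unlike Mki67, replicate 1 was below every vehicle library. Lgr5 was at 73.2, 90.1 and 73.2 FPKM with vehicle and 67.1, 80.5 and 74.7 FPKM with arachidonic acid (adjusted p = 0.55, and 0.90 without replicate 1). Olfm4 fell, from 226, 200.4 and 145 FPKM with vehicle to 33.8, 4.32 and 5.91 FPKM with arachidonic acid (adjusted p = 0.0049, and 4.7e-07 without replicate 1). Of the other stem cell markers, Smoc2 fell and Ascl2 rose (adjusted p = 0.0099 and 0.0022). What the differences in cell type markers contribute to the values of the 41 genes was not tested.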

How the data were processed

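Per the submitters' processing notes, the tools were featureCounts 1.5.0-p3, HISAT2 2.0.5 and StringTie 1.3.3b, with no role or order stated. Build, annotation and strand setting: not given in the sources used here. The deposited values were FPKM made by the authors, as inferred from the values: FPKM times mean transcript length (GENCODE M21) fell on whole steps, with 96.3% to 96.7% of those below 100 whole to within 0.1, which gave the depth. Members had 154 to 19599 recovered fragments per library. Symbols were found for 53274 identifiers.

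The fit kept genes averaging 1 FPKM or more, and limma 3.58.1 (R 4.3.3) fitted the group on log2(FPKM + 1) with a variance trend. P-values were two-sided, Benjamini-Hochberg adjusted over all tested genes, and called under 0.05. The test was tried on simulated data in which all 6 libraries had the spread of the vehicle libraries. The wider spread of the treated libraries and the position of replicate 1 were not simulated. The members and lists were chosen with earlier results of these data known. Named were every member, the 4 smallest p-values of each related list and 13 genes always. Python 3.11.15 with pandas 2.3.3, scipy 1.17.1 and matplotlib 3.10.9 computed the ratios with exact permutation tests and searched the RefSeq promoters for exact letters. Groups and replicate numbers came from the sample titles, and the other settings tried are given under the dependence on processing.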

Additional observations from a re-analysis of the deposited data

How the results depend on the processing

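The rise of Rrm2 and the falls of Prim1, Pold1 and Rpa3 kept their direction and call under all 14 alternatives: no filter, a minimum of 5 FPKM, a pseudocount of 0.1, TPM rescaling, quantile or median-of-ratios normalization, voom (limma) on the recovered fragments, the replicate block and each library left out. With no filter 4 members were lower, as the calls of Gmnn, Rfc3, Rfc4 and Tk1 were lost (adjusted p = 0.077, 0.088, 0.073 and 0.070), and Gmnn was also lost with TPM rescaling (adjusted p = 0.054). Leaving out a library gave 3 to 27 lower members, medians of the members' log2 fold change of -0.35 to -0.086, and 1245 to 4192 lower and 1712 to 3554 higher genes overall. No call of a member changed direction. Of the members' 573 values under alternatives, 26 lost a call, 21 gained one and the others kept their side of the threshold. Signs of values that passed in neither fit changed in 41 cases over all genes named.

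Other replication genes were lower in 2, 9 and 7 cases with no filter, quantile normalization and median-of-ratios scaling, with 1 to 27 lower and 1 to 3 higher as libraries were left out. S-phase control genes were lower in 1 with no filter and 3 with TPM rescaling, with 1 to 14 lower over left-out libraries. Checkpoint genes were higher in 0 with no filter and in 1 with a minimum of 5 FPKM, and lower in 1 with TPM rescaling, with 0 to 2 higher and 1 to 6 lower over left-out libraries. Mitosis genes were lower in 1, 7 and 4 with no filter, quantile normalization and median-of-ratios scaling, with 1 to 16 lower over left-out libraries. The cause of these shifts was not tested. Under the replicate block 9 members were lower and 1 higher, with 1 higher among other replication genes, 2 lower among S-phase control genes and 0 higher among checkpoint genes. The labels do not say that replicate numbers pair the cultures, and same-numbered libraries' deviations correlated at -0.0811, 0.210 and -0.0623 across genes. For the ratios, leaving out libraries was chosen after seeing the data, and since their groups do not overlap it could not change a direction.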
